A study of Mus musculus with 22 samples.

Results

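The genes described here encode the proteasome and were chosen by symbol, Psma to Psmg followed by a number, leaving out symbols that contain -ps. The rule found 50 genes of the 55335 in the table and left out 4. The proteasome degrades ubiquitin-tagged proteins. Its barrel-shaped core is built of alpha and beta rings, with the cutting sites inside the beta rings, and a cap made of a base with ATPases and a lid with a deubiquitinase brings in the substrate. Tissue-specific core subunits can replace standard ones, activators can replace the cap, and dedicated chaperones assemble the particle. Embryos pass from maternally supplied RNA and protein to products of their own genome over the stages studied here. By role the 50 genes are 7 alpha ring, 7 beta ring, 9 base and 8 lid subunits (31 standard subunits in all), 5 tissue-specific core subunits, 6 activators and inhibitor, 7 assembly chaperones, and Psmc3ip. Psmc3ip matches the rule by its symbol but encodes a meiotic recombination protein. It belongs to no subcomplex here, but the counts of members and their share of FPKM include it.

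RNA of mouse embryos from B6D2F1 females mated with B6D2F1 males was sequenced. Controls and embryos after knockdown (KD) of H2A.Z were taken at 3 stages: 2-cell embryo, morula and blastocyst. Each library held a pool of 15 embryos. Controls had 4 libraries per stage, and KD embryos had 3 of 2-cell embryos, 3 of morulae and 4 of blastocysts. KD zygotes were injected at 20 to 22 h after hCG with about 10 pL of 3 siRNA pairs at 20 µM, while how the control embryos were handled is not stated in the labels. Embryos were collected at 43 to 44 h, 78 h and 94 h after hCG. Levels are FPKM, which count fragments relative to the length of the transcript and to all fragments of the library, so each level is relative to its library. The number of reads per library is not given in the table, so the depth behind each value is unknown.

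H2afz, the gene of the histone variant H2A.Z.1 and a knockdown target, was far lower in the KD libraries. In morulae it was 1158, 1336, 1511 and 1421 FPKM in the control libraries and 30.3, 25.7 and 29.0 in the KD libraries (log2 fold change -5.41, standard error 0.17, limma adjusted p = 9.71e-08), and in blastocysts the log2 fold change was -5.19 (standard error 0.20, adjusted p = 3.63e-08). At the 2-cell stage the groups did not overlap either, at 905 to 1244 FPKM in control and 112 to 415 in KD libraries, but no gene passed the test there (H2afz log2 fold change -2.53, adjusted p = 0.543). Without KD replicate 1, the KD library with the most H2afz, its adjusted p was 0.000907. H2afv, the gene of H2A.Z.2, fell by 2.93 on the log2 scale in KD morulae and by 1.86 in KD blastocysts. In KD 2-cell embryos its log2 fold change was -0.23 (adjusted p = 0.84).

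Markers of the stages were present: the summed FPKM of 5 two-cell markers was 328 to 595 in control 2-cell libraries and 5.58 to 17.0 in control morulae, and that of 7 trophectoderm markers was 990 to 1477 in control blastocysts, with Krt18 the most abundant. The trophectoderm sum was 584 to 784 in KD blastocysts, with Krt18 at a mean of 799 FPKM in control and 390 in KD libraries. Its members went both ways: of the 7, 2 were called lower and 1 higher there. Tfap2c was at 3.20 to 8.36 FPKM in control and 10.6 to 18.4 in KD blastocysts. The sum of 5 inner cell mass markers was 127 to 171 in control and 40.1 to 55.2 in KD morulae, and 114 to 223 in control and 141 to 286 in KD blastocysts. In morulae it followed Nanog, with a mean of 106 FPKM in control and 20.7 in KD libraries, the 1 of 3 tested called lower there. Pou5f1 was at 21.5 to 55.3 FPKM in control and 16.3 to 21.3 in KD morulae, and Klf4 at 5.49 to 8.34 and 5.76 to 8.09. The 4 primitive endoderm markers summed to 10.2 to 20.3 FPKM in control and 10.2 to 37.1 in KD blastocysts. Of markers of other cells, 8 cumulus cell markers summed to at most 3.41 FPKM in any group, with Ptx3 and Fshr at 0 throughout, and 3 fibroblast markers to at most 0.0662. The 5 blood and immune cell markers, with Hbb-bs at 0 and Hba-a1 the most abundant, summed to 2.49 to 4.98 FPKM in control and 5.26 to 9.65 in KD morulae, and to 1 to 2.74 in control and 2.75 to 6.63 in KD blastocysts. Of these markers Hba-a1 was called higher in KD morulae and in KD blastocysts. In pools of whole embryos, fewer cells of a type and less RNA per cell cannot be told apart. The two-cell markers summed to 0.428 to 3.36 FPKM in control and 4.09 to 27.8 in KD blastocysts, with Tcstv3 the most abundant. The part of these markers in the results below was not tested.

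The members held a smaller share of the summed FPKM in 2-cell embryos than at the later stages. The 50 genes held 0.500% ± 0.0568 (SD, n = 4) of all FPKM in control 2-cell embryos, 2.02% ± 0.0788 (SD, n = 4) in control morulae and 2.20% ± 0.101 (SD, n = 4) in control blastocysts. In KD embryos the shares were 0.458% ± 0.0329 (SD, n = 3), 1.98% ± 0.115 (SD, n = 3) and 2.38% ± 0.142 (SD, n = 4). Among the 500 genes with the highest FPKM were 4 of the 31 standard subunits in control 2-cell embryos and 26 in control morulae and in control blastocysts. Mitochondrial transcripts, which enter the same total, took 20.7 to 27.0% of FPKM in control 2-cell libraries and 13.3 to 14.6% in control morulae. They took 15.7 to 18.3% in KD morulae, above the controls, and 13.0 to 15.3% in KD blastocysts against 15.2 to 20.0% in control blastocysts, and their part in the results was not tested.

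The subcomplexes did not start from one level. In control 2-cell embryos the median FPKM of the alpha ring was 83.4 ± 7.04 (SD, n = 4) and that of the beta ring 87.5 ± 4.24, against 59.6 ± 15.3 for the lid and 20.5 ± 4.97 for the base. In control morulae these medians were 453 ± 8.90, 452 ± 25.6, 279 ± 12.7 and 233 ± 22.8, so the base stayed the lowest of these medians but came near that of the lid. Assembly chaperones were at 5.85 ± 1.06 and then 38.6 ± 5.71, and the activators and inhibitor at 7.80 ± 0.905 and then 9.94 ± 0.808. Within the lid, Psmd13 had the lowest mean in control 2-cell embryos, 6.94 FPKM, and Psmd7 the highest, 114 FPKM.

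**Figure D1:**
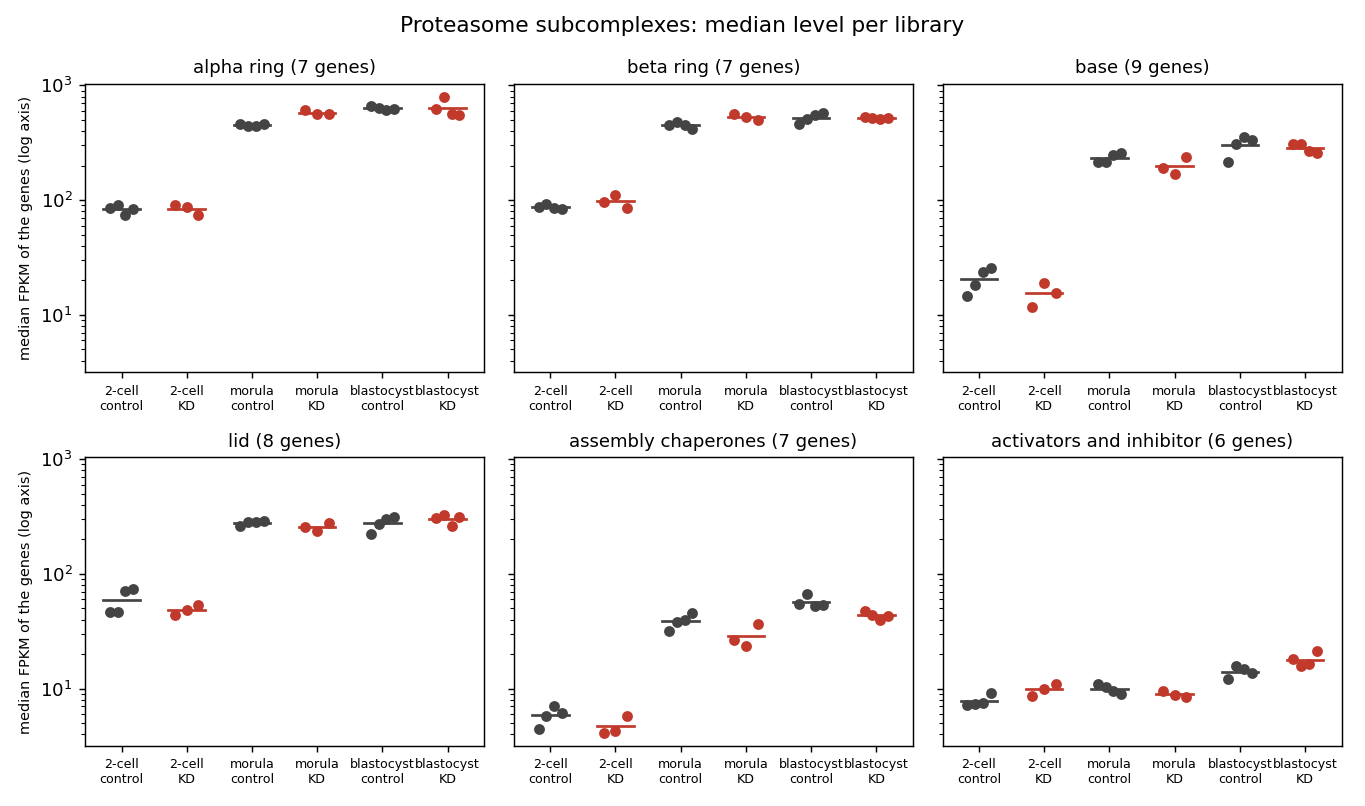
Each point is a library and gives the median FPKM (log axis) of the genes of a subcomplex, and bars are group means, with control libraries in grey and KD libraries in red. The base median was 20.5 FPKM in control 2-cell embryos and 233 in control morulae, while that of the activators and inhibitor was 7.80 and 9.94.

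From control 2-cell embryos to control morulae, every one of the 31 standard subunits rose, each by more than 1 on the log2 scale, with a median log2 fold change of 2.47. Of the 46 members tested, 41 were higher and 4 lower, and 40 and 3 by a stricter rule that adds an absolute log2 fold change above 1. Psmc3ip, not a proteasome protein, was among the lower ones by both rules. Among all genes tested, 43% were higher and 40.3% lower, or 32.1% and 30.1% by that rule, and the median log2 fold change was 0.10. These counts were 41 and 4 under each other scaling too, and with each library left out.

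In the rings, Psma7, an alpha subunit, rose most. It was at 18.0, 19.5, 21.7 and 17.5 FPKM in control 2-cell libraries and at 484, 569, 575 and 549 in control morulae, 26.9-fold higher (log2 fold change 4.75, standard error 0.16, adjusted p = 2.3e-10). The libraries within each stage lay close together and the stages were far apart. Psma5 rose by 3.44 on the log2 scale. In the beta ring, Psmb3 went from 33.7 ± 4.98 to 841 ± 124 FPKM (SD, n = 4 each), a log2 fold change of 4.59, and Psmb6, the subunit with the caspase-like cutting site, rose by 3.26. Psmb5, which carries the chymotrypsin-like site, went from 84.0, 93.4, 104 and 122 FPKM to 454, 388, 357 and 364 (log2 fold change 1.94, adjusted p = 1.1e-07).

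All 9 base subunits rose, by a median of 3.43 on the log2 scale. The ATPases Psmc4 and Psmc3 rose most, by 3.95 and 3.68, Psmc4 from 22.6 ± 7.32 to 354 ± 53.8 FPKM (SD, n = 4 each). All 8 lid subunits rose, by a median of 1.97, led by Psmd8 at 3.81 and Psmd12 at 2.52. Psmd14, the deubiquitinase of the lid, was at 121, 81.6, 88.3 and 95.9 FPKM and then at 210, 262, 273 and 267 (log2 fold change 1.38, adjusted p = 4.56e-05), a smaller rise from a higher level. Psmd3 was uneven among control morulae, at 73.7, 39.0, 18.3 and 18.5 FPKM, where replicates 1 and 2 were the high ones.

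Chaperones of core assembly rose with the rings. Psmg2 was at 4.10, 3.04, 3.76 and 3.35 FPKM in control 2-cell libraries and at 135, 148, 152 and 155 in control morulae (log2 fold change 5.01, standard error 0.17, adjusted p = 1.8e-10), and no member rose more. Psmg3 rose by 2.99 and Psmg1 by 1.85, and Pomp, the core maturation factor outside the symbol rule, by 2.97. Of the 7 chaperones, 6 rose, and Psmd5, a chaperone of the base, did not pass the test (log2 fold change 0.10, adjusted p = 0.649).

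The activators went both ways. Psme4, which encodes PA200, a nuclear activator, was at 73.1, 78.7, 49.7 and 52.4 FPKM in control 2-cell libraries and at 6.54, 1.5, 1.94 and 4.67 in control morulae (log2 fold change -3.91, standard error 0.33, adjusted p = 3.01e-07). It was the most abundant of the 6 at the 2-cell stage. Psme3, of the nuclear activator PA28gamma, fell by 1.17, and Psme2, of the cytoplasmic PA28, fell by 0.74. Psme1, the partner of Psme2 in PA28, rose instead, from 4.16 ± 1.20 to 34.9 ± 3.63 FPKM (SD, n = 4 each), a log2 fold change of 2.80. Psmf1, the inhibitor PI31, rose by 1.72, with morula replicate 8 at 39.6 FPKM and the other morulae at 15.3 to 16.7. Psmc3ip fell by 1.04.

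Of the tissue-specific core subunits, Psmb8 and Psmb11, the latter a subunit of thymic cells, had too little signal to be tested in any comparison, and Psmb8 was at most 0.135 FPKM in any library. Psmb9 went from at most 0.0542 FPKM in control 2-cell libraries to 1.65, 1.61, 1.42 and 1.44 in control morulae (log2 fold change 1.28, and 3.76 with a pseudocount of 0.1). It passed the filter through the morulae alone, so no fall could have been called, and the call held with no filter on low FPKM. Psmb10 rose by 2.11, to 16.3 ± 1.84 FPKM (SD, n = 4). These levels were small beside those of the standard subunits they can replace: Psmb10 was 3.63% of Psmb7, and Psmb9 was 0.193% of Psmb6, in control morulae.

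From control morulae to control blastocysts the members no longer moved together. Of 48 tested, 15 were higher and 7 lower, 4 and 2 by the stricter rule, beside 27.6% higher and 28.8% lower of all genes tested, or 13.4% and 12.9% by that rule. Here too Psmc3ip was among the lower ones by both rules. Control morulae enter both developmental comparisons, so their values are shared. The alpha ring had 5 of 7 genes higher, among them Psma2 by 0.66 and Psma1 by 0.62, and the beta ring had 2, Psmb3 by 0.63 and Psmb5 by 0.34. Psma4 and Psma5 lost their calls, which left 3 in the alpha ring, without control morula replicate 1 or 2 or control blastocyst replicate 6, and Psma5 also without control morula replicate 7 or control blastocyst replicate 1 or 4. In the main test no lid gene was higher and 3 were lower, Psmd3 by -1.36 and Psmd8 by -0.71 among them. In the base, Psmc2 rose by 0.75 and Psmc5 fell by 0.42. With the FPKM not scaled further, 22 members were higher and 5 lower, and Psmb2, Psmb4, Psmb6 and the lid gene Psmd14 (log2 fold change 0.43, adjusted p = 0.0119) were among those added. Psmb5 lost its call without control morula replicate 2, 7 or 8 or control blastocyst replicate 4, 5 or 6 (adjusted p up to 0.116), and Psmc5 without control morula replicate 2, 7 or 8 or control blastocyst replicate 1 or 4 (adjusted p up to 0.102) or with the FPKM not scaled further (0.129). With no filter on low FPKM the calls of Psma4, Psma5, Psmd5, Psme3, Psmb3 (adjusted p = 0.0565), Psmc5 (0.0893) and Psmd3 (0.0637) were lost.

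The largest rise at this step was that of Psme2. It was at 4.68, 4.53, 5.88 and 5.14 FPKM in control morulae and at 70.9, 66.0, 36.8 and 64.4 in control blastocysts (log2 fold change 3.20, standard error 0.23, adjusted p = 6.15e-07), with no overlap. Of the 11849 genes tested, 3012 were higher and 3054 lower with no overlap, and 17 and 8 of the 48 members. Psme2b rose by 1.77; 52.0% of its stretches of 100 bases also occur in Psme2, so reads of the pair may not be separable. Psme1 was level (log2 fold change 0.06, adjusted p = 0.743), so Psme2 went from 14.7% of Psme1 to 154%. Psme3 fell by 0.63, a call lost without control morula replicate 1 or 2 or control blastocyst replicate 1 or 4 (adjusted p up to 0.0832), with the FPKM not scaled further (0.0899) and with no filter on low FPKM (0.0906). Psmg4 rose by 1.29 and Psmd10 by 0.95. Psmb9 rose by 1.38 and Psma8, a germ cell alpha subunit, by 0.75 (1.79 and 1.46 with a pseudocount of 0.1), while Psmb10 fell by 0.99 and Psmc3ip by 1.35. Psma8 and Psme2b passed the filter through the blastocysts alone, and their calls held with no filter.

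KD and control 2-cell embryos did not differ past the test in any member. Of 45 members tested, 0 were higher and 0 lower, and so were 0% and 0% of the 12160 genes tested with limma, of which 701 had an unadjusted p under 0.05. Of the 31 standard subunits, 25 had a log2 fold change below 0, with a median of -0.16 beside 0.00 for all genes tested, and all 8 lid genes were below 0. Without control replicate 5 the count was 21 and the median -0.047, and without KD replicate 1 they were 24 and -0.082. The lowest was Psmd13, at 4.39, 4.20, 8.18 and 11 FPKM in control and 2.09, 3.81 and 2.76 in KD libraries (log2 fold change -0.91, adjusted p = 0.828). The highest was Psmb1, at 66.1 to 172 FPKM in control and 155 to 180 in KD libraries (log2 fold change 0.81). Psme2 was at 6.06, 8.94, 11.2 and 11 in control and 11.3, 16.9 and 13.1 in KD libraries (log2 fold change 0.60, adjusted p = 0.828). Psme4 had a log2 fold change of 0.46 and Psmb5 of -0.12.

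In KD morulae 5 of 46 members passed the test, 1 higher and 4 lower. Among all genes tested 4.23% were higher and 9.04% lower, and by the stricter rule, under which 1 member was lower, 0.992% and 2.53%. That rule depends on the 1 added before the logarithm: with a pseudocount of 0.1 it was passed by 789 genes instead of 387. The standard subunits did not move as a group: 19 were above 0 and 12 below, and 1 was called higher and 1 lower. Above 0 were 6 of 7 alpha ring, 6 of 7 beta ring, 4 of 9 base and 3 of 8 lid genes. The count turned to 14 above and 17 below with the FPKM not scaled further, and also without control replicate 1. With a batch by replicate number 22 were above and 9 below, and 4 were called higher and 2 lower. Among all genes tested, that batch gave 777 higher and 1261 lower. With the FPKM not scaled further, the median of all genes moved from 0.02 to -0.09 and the calls from 465 higher and 993 lower to 281 and 1553.

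The inducible core subunits Psmb9 and Psmb10 were lower, and Psmb8 was not tested. Psmb10 was at 16.0, 15.6, 19 and 14.8 FPKM in control and 9.15, 6.86 and 5.69 in KD morulae (log2 fold change -0.97, standard error 0.17, adjusted p = 0.00793), and Psmb9 at 1.65, 1.61, 1.42 and 1.44 against 0.350, 0.412 and 0.321 (log2 fold change -0.83, standard error 0.14, adjusted p = 0.00581). With a pseudocount of 0.1 the log2 fold change of Psmb10, KD vs control in morulae, was -1.06, and the log2 fold change of Psmb9, KD vs control in morulae, was -1.71. Neither overlapped between the groups. Of the 10989 genes tested, 1345 were higher and 1751 lower in KD morulae without overlap, and 6 and 7 of the 46 members. Psmb9 passed the filter through the control libraries alone, so no rise could have been called, and its call held with no filter. Psmd10, or gankyrin, a chaperone of the base, was at 22.0, 27.3, 38.6 and 31.8 in control and at 11.6, 12 and 11.5 in KD morulae (log2 fold change -1.14, adjusted p = 0.0101), a call lost with no filter on low FPKM (adjusted p = 0.072). Psmc3, a base ATPase, was at 122 to 141 in control and 64.5 to 92.8 in KD morulae (log2 fold change -0.65, adjusted p = 0.0371), and the call was lost without control replicate 2, 7 or 8 or KD replicate 1 or 2 (adjusted p up to 0.158) and with no filter (0.136). Psma1 was the member called higher, from 409 ± 39.9 (SD, n = 4) to 581 ± 28.9 FPKM (SD, n = 3), a log2 fold change of 0.64 (adjusted p = 0.00843).

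The paper reports that far fewer KD than control embryos formed blastocysts. KD and control blastocyst pools may thus differ in developmental progress or in which embryos survived, and this cannot be told apart from the knockdown here. In KD blastocysts 13 of 48 members passed the test, 4 higher and 9 lower, beside 16.7% higher and 19.8% lower of all genes tested. By the stricter rule 1 member was higher and 3 were lower, beside 6.06% and 7.69%, and with a pseudocount of 0.1 that rule was passed by 2477 genes instead of 1626. The standard subunits again did not move as a group: 18 were above 0 and 13 below, 3 were called higher and 1 lower, and no ring gene passed the main test. With the FPKM not scaled further the ring genes Psmb4 and Psma3 did, and with each library left out 1 to 5 standard subunits were higher and 0 to 1 lower. The lower members were tissue-specific core subunits, chaperones and activators, with Psmc2 of the base.

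**Figure D2:**
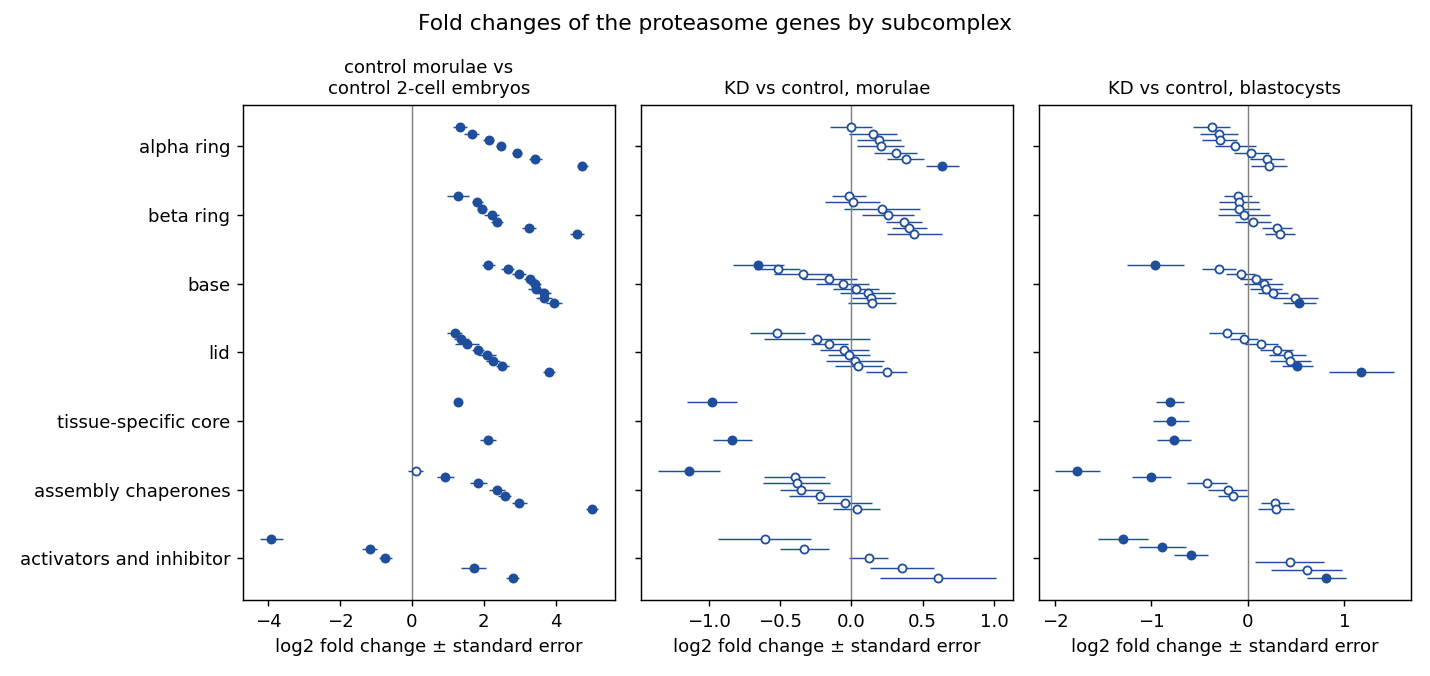
Each point is a gene, with its log2 fold change and standard error on the horizontal axis, whose span differs between panels. Filled points have an adjusted p under 0.05. In the left panel 31 of 31 standard subunits (the upper 4 rows) lie above 0, and in KD blastocysts Psmb9, Psmb10 and Psma8 lie at -0.81 to -0.77, where the 1 added before the logarithm shrinks the change of Psma8 most.

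The tissue-specific core subunits Psmb9, Psmb10 and Psma8 were lower in KD blastocysts. Psma8 passed the filter through the control libraries alone, so for it no rise could have been called. Psmb9 was at 7.41, 5.29, 5.48 and 5.57 FPKM in control and 2.99, 2.43, 3.81 and 2.71 in KD libraries (log2 fold change -0.79, standard error 0.19, adjusted p = 0.00592). Psmb10 was at 5.65, 8.18, 9.27 and 10.3 against 4.74, 4.26, 4.13 and 4.30 (log2 fold change -0.77, adjusted p = 0.0057), and Psma8 at 1.49, 2.09, 1.61 and 1.36 against 0.450, 0.354, 0.520 and 0.644 (log2 fold change -0.81, adjusted p = 0.00137). With a pseudocount of 0.1 the log2 fold changes were -0.97 for Psmb9, -0.88 for Psmb10 and -1.55 for Psma8. The groups did not overlap in any of these genes. That was common: of the 11828 genes tested, 1900 were higher and 2299 lower without overlap, and 5 and 8 of the 48 members. Each call of Psmb9, Psmb10 and Psma8 held with each library left out and with no filter on low FPKM. Their standard counterparts did not pass the test: Psmb6, that of Psmb9, had a log2 fold change of 0.05 (adjusted p = 0.861), Psmb7, that of Psmb10, of 0.30 (adjusted p = 0.159) and Psma7, that of Psma8, of 0.22 (adjusted p = 0.391). Psmb5, the counterpart of the untested Psmb8, had one of -0.10 (adjusted p = 0.619).

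Psmd10 fell most. It was at 76.2, 66.8, 52.6 and 51.8 FPKM in control and 21.3, 19.5, 14.1 and 14.6 in KD blastocysts (log2 fold change -1.77, standard error 0.23, adjusted p = 0.000151). Psmg4, a chaperone of the alpha ring, was at 54.5, 42.9, 50.3 and 53.1 against 25.4, 31.3, 19.8 and 22.1 (log2 fold change -1.0, standard error 0.20, adjusted p = 0.00254). Neither overlapped. The other 5 chaperones did not pass the test, among them Psmg1 (log2 fold change -0.42, adjusted p = 0.136).

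Both genes of cytoplasmic PA28 were lower. Psme2 was at 70.9, 66.0, 36.8 and 64.4 FPKM in control and 17.2, 27.7, 19.4 and 28.9 in KD blastocysts (log2 fold change -1.30, standard error 0.26, adjusted p = 0.00239), where control replicate 5 was the low one and still above the KD libraries. Psme1 was at 39.8, 41.6, 37.0 and 35.7 against 29.5, 23.0, 22.6 and 25.6 (log2 fold change -0.59, adjusted p = 0.0182), and Psme2b fell by 0.89, a call lost with no filter on low FPKM (adjusted p = 0.0719). Psme3 went the other way, from 12.4 ± 2.51 to 23.2 ± 8.13 FPKM (SD, n = 4 each), a log2 fold change of 0.81 (adjusted p = 0.00834). Psme4 had a log2 fold change of 0.61 (adjusted p = 0.215, and 0.0289 without KD replicate 1). Psmf1 did not pass the test and was at 51.4 FPKM in KD replicate 1 and 13.5 to 17.8 in the other KD libraries.

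**Figure D3:**
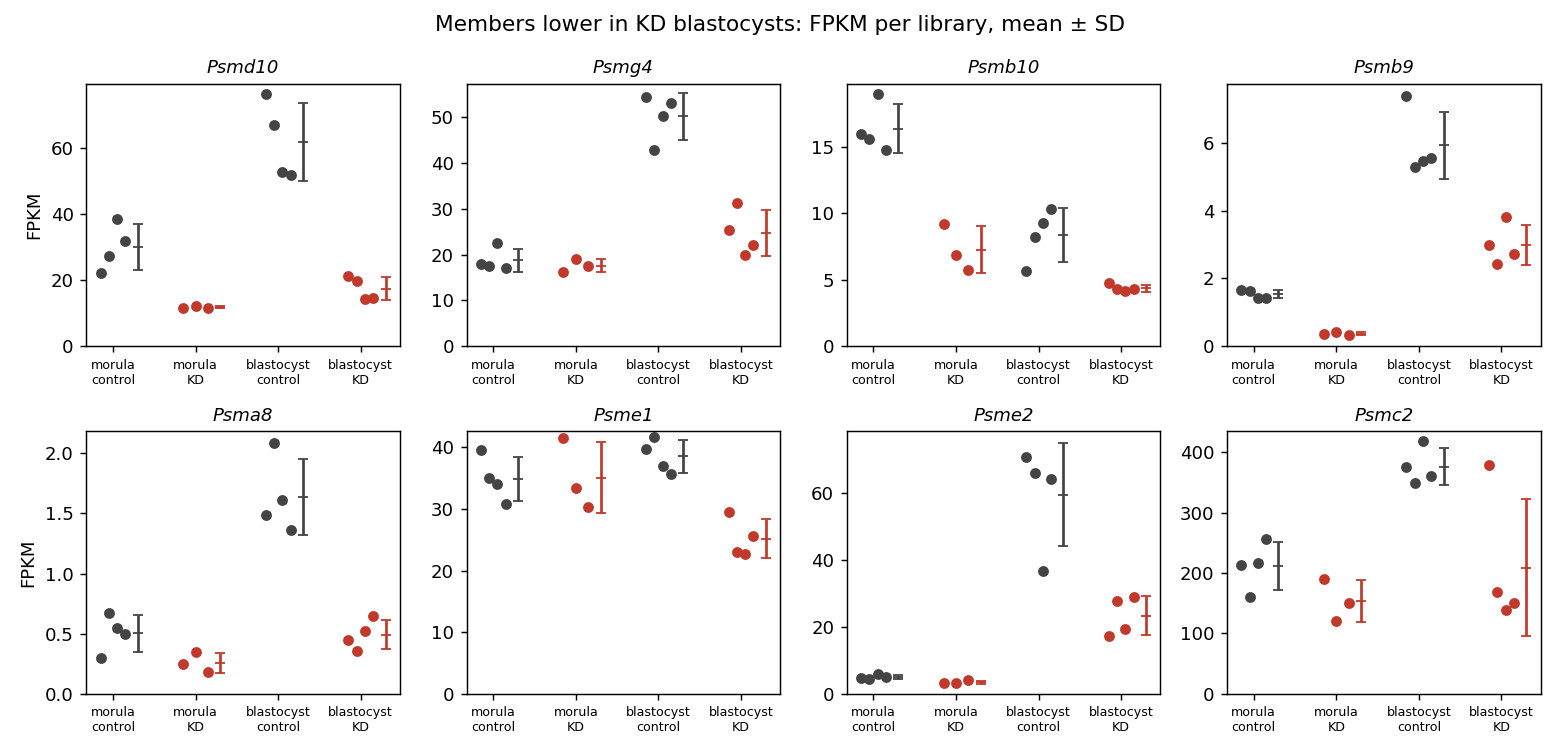
Each point is the FPKM of a library in morulae and blastocysts, with the mean and SD beside it, for 8 of the 9 members lower in KD blastocysts (Psme2b is left out). Psmd10 lies at 51.8 to 76.2 FPKM in control and 14.1 to 21.3 in KD blastocysts, and in Psmc2 KD replicate 1 lies at 379 FPKM among the control libraries.

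In the base, Psmc2 was at 376, 349, 419 and 361 FPKM in control and 379, 168, 139 and 150 in KD blastocysts (log2 fold change -0.96, standard error 0.30, adjusted p = 0.024). KD replicate 1 lay among the control libraries, and the call was lost without control replicate 1 or KD replicate 5 or 6 (adjusted p up to 0.0715) and with no filter on low FPKM (0.13). Psmc5 rose by 0.53, with control replicate 1 at 192 and the other control libraries at 310 to 349 FPKM, and the call was lost without control replicate 1 or 4 or KD replicate 1, 4 or 6 (adjusted p up to 0.0637) and with no filter (0.0658). In the lid, Psmd3 was at 6.28, 13.0, 18.1 and 15.5 against 19.2, 17.1, 59.0 and 36.5 (log2 fold change 1.18, adjusted p = 0.0155), with no overlap after scaling, a call lost with no filter (adjusted p = 0.103). Psmd7 rose by 0.51, a call lost without control replicate 1 or 4 or KD replicate 1, 4 or 6 (adjusted p up to 0.0667). Psmd14 had a log2 fold change of -0.21 (adjusted p = 0.395).

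The difference of the KD effect between blastocysts and morulae was tested for 48 members, and 0 were higher and 2 lower, beside 5.43% and 6.32% of all genes tested. Psmg4 differed by -1.08 (standard error 0.27, adjusted p = 0.0157): it was 17.9, 17.6, 22.5 and 17.0 FPKM in control and 16.1, 19.1 and 17.5 in KD morulae, and lower in KD blastocysts only. The difference of Psme1 was -0.75 (adjusted p = 0.0307). It was lost without control morula replicate 8, KD morula replicate 1 or 2, control blastocyst replicate 1 or 4, or KD blastocyst replicate 5 or 6 (adjusted p up to 0.0939), and with the FPKM not scaled further (adjusted p = 0.058), when 4 members were higher and 1 lower and the median of all genes moved from -0.01 to 0.11. For Psmb9 and Psmb10 the KD effects differed by 0.03 (adjusted p = 0.941) and 0.18 (adjusted p = 0.671), and for Psme2 by -1.0 (adjusted p = 0.0644). For Psma8, at most 0.670 FPKM in any morula library, the difference was -0.57 (adjusted p = 0.055). It was called without control blastocyst replicate 6 (-0.63, adjusted p = 0.0469). Psma8 passed the filter through the control blastocysts alone. The 1 added before the logarithm shrinks its KD effect more in morulae, so nothing is concluded from its difference. The difference of Psme2 was called without control blastocyst replicate 5 (-1.24, adjusted p = 0.00984) and without KD blastocyst replicate 4 (-1.12, adjusted p = 0.0422). The value for Psmb9, which is under 1 FPKM in KD morulae, depends on the 1 added before the logarithm and was 0.72 (adjusted p = 0.134) with a pseudocount of 0.1.

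Genes that work with the proteasome were followed from lists. Of all genes tested, 83.3% were called in either direction at the first developmental step, 13.3% in KD morulae and 36.5% in KD blastocysts, so with lists this short the counts below say little about the lists. Of 10 partners outside the symbol rule, 6 rose and 4 fell from control 2-cell embryos to morulae, and in KD blastocysts 1 rose and 0 fell. Of the regulators of proteasome genes, 7 were tested at the first step, where 2 rose and 4 fell. Nfe2l1, which encodes the factor that induces proteasome genes when proteasome activity is short, fell by 1.31, from 7.03 ± 3.13 to 2.18 ± 0.854 FPKM (SD, n = 4 each), while the subunits rose. In KD blastocysts 3 of 7 regulators rose, Mafg by 1.16, Ddi2 by 0.62 and Nfe2l2 by 0.46, and Ngly1 fell by 0.75, while Nfe2l1 did not pass the test (log2 fold change 0.43, adjusted p = 0.267). Of 6 genes of ubiquitin and its E1 enzymes, 4 rose and 1 fell at the first step and 0 were called in KD morulae or KD blastocysts. Of the shuttles and the VCP complex, 2 rose and 1 fell in KD blastocysts among 11 tested. Of 4 antigen processing partners tested there, 2 rose and 1 fell: B2m, which stabilises MHC class I, fell by 1.02, while Tap1, the peptide transporter gene next to Psmb9, rose by 1.05, from at most 0.623 FPKM in control to 1.59 to 2.63 in KD libraries. Tap1 passed the filter through the KD libraries alone, so no fall could have been called. In KD morulae B2m rose instead, by 0.88, and its KD effect differed between the stages by -1.94 (adjusted p = 0.00026).

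Promoters were read from RefSeq (GRCm38.p6), from 250 bases before to 50 after each start. They were found for 42 of the 50 members. The antioxidant response element bound by factors of the Nfe2l1 family was searched on both strands as TGACNNNGC or TGAGNNNGC, and 48.0% of 25 standard subunit genes had a match, beside 30.8% of all 27025 genes with a promoter. Counted apart, TGACNNNGC was in 16.0% of the standard subunit genes and 14.0% of all genes, and TGAGNNNGC in 40.0% and 19.8%. CCAAT, the box bound by NF-Y, was in 40.0% and 41.1%. The promoters below, with matches in capitals, were picked to show matches and do not represent the members. Psma7, Psmb5, Psmb6 and Psmd12 carry a match to the element, and Psmc4 and Psmd8 have neither motif. Whether a match goes with the size of the rise was not tested. Psmd10, lower in KD morulae and KD blastocysts, has CCAAT alone. A match is a stretch of letters and not a measured binding site.
Psma7, chr2:180042415-180042714, minus strand: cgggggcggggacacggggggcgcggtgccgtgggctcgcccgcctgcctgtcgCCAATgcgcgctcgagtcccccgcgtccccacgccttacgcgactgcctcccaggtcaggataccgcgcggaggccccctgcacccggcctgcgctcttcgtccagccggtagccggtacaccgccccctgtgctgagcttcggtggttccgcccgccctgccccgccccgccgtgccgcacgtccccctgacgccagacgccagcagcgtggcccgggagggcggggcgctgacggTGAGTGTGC
Psmb5, chr14:54617946-54618245, minus strand: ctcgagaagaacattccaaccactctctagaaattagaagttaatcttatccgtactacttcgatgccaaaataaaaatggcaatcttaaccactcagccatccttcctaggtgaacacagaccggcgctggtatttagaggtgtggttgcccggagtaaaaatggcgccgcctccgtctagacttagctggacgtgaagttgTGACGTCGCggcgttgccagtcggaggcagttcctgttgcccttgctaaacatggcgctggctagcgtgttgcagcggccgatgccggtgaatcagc
Psmb6, chr11:70525107-70525406, plus strand: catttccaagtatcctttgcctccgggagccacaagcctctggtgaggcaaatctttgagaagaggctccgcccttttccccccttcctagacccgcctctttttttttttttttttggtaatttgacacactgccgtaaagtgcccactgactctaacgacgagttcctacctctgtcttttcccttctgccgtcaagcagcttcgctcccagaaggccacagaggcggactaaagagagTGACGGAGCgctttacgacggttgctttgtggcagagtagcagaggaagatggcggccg
Psmd12, chr11:107479278-107479577, plus strand: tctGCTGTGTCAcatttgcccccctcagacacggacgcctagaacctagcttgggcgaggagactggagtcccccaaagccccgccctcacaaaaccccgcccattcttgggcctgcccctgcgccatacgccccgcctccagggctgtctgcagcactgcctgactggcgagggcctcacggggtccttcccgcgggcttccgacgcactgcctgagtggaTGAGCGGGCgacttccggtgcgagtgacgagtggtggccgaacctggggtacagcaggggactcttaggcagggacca
Psmd10, chrX:140956662-140956961, minus strand: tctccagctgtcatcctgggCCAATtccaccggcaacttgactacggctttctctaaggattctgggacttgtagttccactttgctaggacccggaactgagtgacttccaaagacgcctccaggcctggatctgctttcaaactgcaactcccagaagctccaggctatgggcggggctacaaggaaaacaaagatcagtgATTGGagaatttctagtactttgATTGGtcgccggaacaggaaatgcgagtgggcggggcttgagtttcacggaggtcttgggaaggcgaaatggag

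All 50 member identifiers and symbols matched the annotation (GENCODE M21, GRCm38). Psmd10 (ENSMUSG00000031429.14) lies on chromosome X from 140948429 to 140956728, Psmg4 (ENSMUSG00000071451.10) on chromosome 13 from 34162964 to 34178173, and Psme4 (ENSMUSG00000040850.17) on chromosome 11 from 30771726 to 30880361. Psme1 (chromosome 14, 55578123 to 55581529) and Psme2 (chromosome 14, 55587441 to 55591113) lie near each other, and so do Psmb8 (chromosome 17, 34197721 to 34201454) and Psmb9 (chromosome 17, 34181987 to 34187764). Some levels are uncertain because sequence is shared: 22.2% of the 100-base stretches of Psmb5, 23.7% of Psma5 and 18.4% of Psme2 also occur in transcripts of other genes. Exons of Psmb9 overlap Tap1 on the opposite strand over 5.8% of their length, those of Psmd9 overlap Gm26745 over 25.5% and those of Psmc3ip overlap Mlx over 21.2%, and no use of strand is stated. No stretch of Psmd10, Psmg4, Psmb10 or Psmc2 was shared.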

How the data were processed

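The study's RNA-seq of 22 libraries was used. The authors aligned reads to mm10 with STAR, quantified genes with StringTie 2.1.4 and deposited FPKM; DESeq2 1.30.1 and featureCounts 1.6.2 in the submitters' notes concern read counts, which were not used here. FPKM printed per library are as deposited. In each comparison, library factors (the median over genes of a library's FPKM relative to the gene's geometric mean) divided the FPKM, 1 was added and log2 taken. Genes reaching an FPKM of 1 in 3 or more libraries were tested with limma 3.58.1 (R 4.3.3, empirical Bayes with trend) over all genes with Benjamini-Hochberg adjustment, with a call at an adjusted p under 0.05; the stricter rule is the one for differential genes with an absolute log2 fold change above 1. Steps were tested on simulated data. Figures used matplotlib 3.10.9. Sequencing depth is unknown, which limits the precision of low values.

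Members and lists were chosen with earlier results of these data known. Named for checking under the alternatives were, per comparison and subcomplex, up to 2 called members with the largest absolute change in each direction. In every comparison, those of 18 further genes that were tested were named too, and not every such value is printed above. Others, such as Psmd13, Psmd5 and Tap1, were chosen after their values were seen. Scaling factors centred on a geometric mean of 1 were also run after the first results were known, because an earlier account of these data gave a different count of morula genes. They gave 395 instead of 387 differential genes in morulae and moved no call among the members; the uncentred factors were kept. Alternatives tried were the pseudocount, the filter, the scaling, a replicate block, a batch by replicate number and leaving out each library. The batch set replicates 1 and 2 apart from later numbers, and in blastocysts replicate 1.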

Additional observations from a re-analysis of the deposited data

Results flagged for a closer look

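In groups of 4 libraries, 186 pairs of a member and a group with a mean of at least 1 FPKM were looked at for a library far from the others (Dixon's test for 4 values), and 14 were found. With so many pairs, some are flagged by chance. In control 2-cell embryos Psmb6 was low in replicate 5 (70.8 FPKM, others 85.9 to 87.9) and Psmd9 high in replicate 4 (16.6, others 7.61 to 8.08). In control morulae replicate 1 was low in Psma2 (238, others 290 to 296), Psma5 (539, others 653 to 671) and Psmd14 (210, others 262 to 273), while Psmf1 was high in replicate 8 (39.6, others 15.3 to 16.7), Psmg4 in replicate 7 (22.5, others 17.0 to 17.9) and Psmd9 in replicate 2 (26.7, others 16.7 to 17.7). In control blastocysts Psmb4 was low in replicate 5 (380, others 417 to 424), Psmb6 high in replicate 4 (1270, others 1110 to 1130) and Psmb9 high in replicate 1 (7.41, others 5.29 to 5.57). In KD blastocysts replicate 1 was high in Psmb7 (529, others 453 to 461), Psmc2 (379, others 139 to 168) and Psmf1 (51.4, others 13.5 to 17.8).

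The KD effect differed between blastocysts and morulae, by the test of the difference, in Psme1 (-0.752 on the log2 scale) and in Psmg4 (-1.08).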

How the results depend on the processing

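Of 128 values of named genes, 67 were called, and 0 of these changed direction under any alternative. A call was lost in 9 when a library was left out and in 13 under another setting. Counts of members called, higher and lower, changed as follows. In KD morulae they were 2 and 6 with a replicate block, 4 and 5 with a batch by replicate number, 2 lower with no filter on low FPKM, 7 lower with the FPKM as deposited, and 0 and 1 under the stricter rule. In KD blastocysts they were 2 and 7 with no filter, 5 and 10 with the FPKM as deposited, and 1 and 3 under the stricter rule. In control morulae against 2-cell embryos 5 were lower with no filter. In control blastocysts against control morulae they were 11 and 4 with no filter and 22 and 5 with the FPKM as deposited. For the difference of the KD effect, 4 were higher and 1 lower with the FPKM as deposited. Scaling factors centred on a geometric mean of 1, added after seeing the data, left the counts of members as they were. Where no cause is given, the cause was not tested.

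With each library left out in turn, 0 members were called in 2-cell embryos, 1 to 2 higher and 3 to 6 lower in KD morulae, 2 to 6 and 8 to 9 in KD blastocysts, 41 and 4 at the first developmental step, 12 to 15 and 5 to 9 at the second, and 0 to 3 and 1 to 4 for the difference of the KD effect.

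Same-numbered control and KD libraries deviated together with r = 0.209, 0.0146 and 0.214 for 2-cell embryos, 0.181 and 0.0944 for morulae, and 0.086, -0.111, 0.354 and 0.00149 for blastocysts. The numbers were not taken as pairs, and not every library correlated best with its own number. In morulae, control replicates 1 and 2 had positive r with KD replicates 1 and 2, and r = -0.278 and -0.207 with KD replicate 6. Control replicates 7 and 8 had r = 0.185 and 0.347 with KD replicate 6, and negative r with KD replicates 1 and 2. The main test does not model such ranges of numbers, and what they stand for was not tested. With the replicate block 0 members were called in 2-cell embryos, 5 higher and 9 lower in KD blastocysts and 41 and 4 in control morulae against 2-cell embryos. No paired analysis was possible for control blastocysts against control morulae because they share a single number.

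Values that changed sign were not called in the main test. With the replicate block, sign changed for Nfe2l1 in KD 2-cell embryos (-0.089), Psmd14 in KD morulae (0.19), Psme3 in KD morulae (-0.0066) and H2afz in control morulae against 2-cell embryos (-0.18). With the FPKM as deposited, sign changed for Psmc3ip in KD 2-cell embryos (-0.057), Pomp in KD morulae (-0.099), Psmb5 in the difference of the KD effect (0.033), Psma7 in the difference of the KD effect (0.025), Psme4 in the difference of the KD effect (0.095), Psmg1 in the difference of the KD effect (0.087) and Pomp in the difference of the KD effect (0.079). With a library left out, log2 fold changes that spanned 0 in KD 2-cell embryos were Psmb5 -0.25 to 0.0091, Psmb10 -0.070 to 0.28, Psme1 -0.67 to 0.052, Psmf1 -0.58 to 0.093, Nfe2l1 -0.090 to 0.28 and Psmc3ip -0.054 to 0.076. With a library left out, log2 fold changes that spanned 0 in KD morulae were Psmb5 -0.045 to 0.013, Psmd14 -0.20 to 0.015 and Pomp -0.12 to 0.10. With a library left out, log2 fold changes that spanned 0 in KD blastocysts were Psmf1 -0.0073 to 0.69, Pomp -0.13 to 0.17 and Psmc3ip -0.14 to 0.12. With a library left out, log2 fold changes that spanned 0 in control blastocysts against morulae were Psma7 -0.014 to 0.15, Psme1 -0.0012 to 0.11, Psme4 -0.24 to 0.26 and Pomp -0.087 to 0.16. With a library left out, log2 fold changes that spanned 0 in the difference of the KD effect were Psmb9 -0.025 to 0.18, Psma7 -0.22 to 0.039, Psme4 -0.47 to 0.32, Psmg1 -0.19 to 0.14, Pomp -0.20 to 0.10 and Nfe2l1 -0.43 to 0.012.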
